A study of Homo sapiens with 6 samples.

Results

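Complement, coagulation and plasma transport proteins are secreted mainly by the liver, and their transcripts were compared between Caco-2 cells, a human colon cancer cell line with features of intestinal absorptive cells, given hairpins against FAM46A and cells given a control hairpin. The genes were chosen by symbol, from a list of 40 plasma protein genes and from the serpin families A to I. This list and the further gene lists below were drawn up with earlier results of these data known. Their shares beside those of all genes are therefore descriptions and not tests. Of the 40 listed genes, 33 had a probe set with a single symbol and are described here, out of 14884 genes measured in all. C1R, C1S, C8A, C8B, C8G, F5 and F13B were not analysed here, and neither was any serpin. The 33 genes held 8 of complement, 13 of coagulation and fibrinolysis and 12 of plasma transport and the acute phase.

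The 6 samples were total RNA from Caco-2 cells, each hybridised to 1 Affymetrix array in a single channel. Subconfluent cells had been infected with lentivirus and were sampled 17 days later. There were 2 arrays with FAM46A-shRNA#2, 2 with FAM46A-shRNA#4 and 2 with scramble shRNA, so that all groups carried a lentiviral hairpin and none was uninfected. FAM46A, also named TENT5A, encodes a non-canonical poly(A) polymerase. Its own level was not analysed here, so the groups follow the labels alone. All groups come from 1 cell line, and the labels call the arrays biological replicates without saying what separates them. The p-values therefore measure only the spread between these samples, which may be technical.

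The deposited values were taken as log2 and had been centred, probe set by probe set, on the 6-array median. Such values keep differences between groups but not the level of a gene. A gene with flat values may therefore be steadily expressed or not expressed at all, and whether the markers of the epithelium are present could not be checked. Changes are given as the hairpin group minus scramble on the log2 scale, with the standard error (SE) of the limma fit and n = 2 arrays per group. A gene is said to have risen or fallen where its p-value, adjusted over all 14884 genes by Benjamini-Hochberg, was under 0.05. In a bulk sample, fewer cells of a type and less RNA per cell cannot be told apart.

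Complement is a cascade of plasma proteases. C2 and factor B (CFB) supply the proteolytic subunits of the enzymes that cleave C3. Cleavage of C5 then releases the anaphylatoxin C5a and starts assembly of the membrane attack complex from C6, C7, C8 and C9. Coagulation runs through vitamin K-dependent proteases such as factors VII, IX and X and prothrombin (F2) to the conversion of fibrinogen to fibrin, and plasmin dissolves the clot. Many of these genes are induced in hepatocytes during the acute-phase response and are driven by hepatocyte nuclear factors that enterocytes share.

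C5 rose and most of the other genes that changed fell. Against scramble, the mean of both hairpins gave 1 rise and 16 falls among the 33 genes, and 16 genes did not pass the test. Over all genes tested, 14.8% rose and 10.6% fell in the same comparison, and 25.4% passed in either direction. For C5 and the 16 falls together this was 51.5% of the 33 genes. The median change of the 33 genes was -0.36, beside 0.003 over all genes. C5, the only gene of the 33 that rose here, and CP are described separately. Without them 16 of 31 genes fell, with a median of -0.359. The 4 hairpin arrays lay below both scramble arrays for 19 of the 33 genes and above them for 2, C5 and A1BG. Of all genes, 16.7% lay below and 19.5% above in this way, 36.2% together.

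With shRNA#2 alone, 2 of the 33 genes rose and 15 fell, where 12.1% of all genes rose and 9.54% fell (21.6% together). With shRNA#4 alone, 1 rose and 16 fell, where 15.7% of all genes rose and 10.4% fell (26.1% together). The comparisons with scramble share the scramble arrays and are not independent of each other. Called lower with each hairpin were 14 of the 33 genes, C2, C3, CFB, F2, F7, F10, FGA, FGB, FGG, AHSG, HPX, KNG1, PROS1 and VTN, where 5.95% of all genes were. C5 was called higher with each, as 7.79% of all genes were, and CP, ceruloplasmin, with opposite signs, as 0.672% were. The shared scramble arrays enter all 3 of these shares. ITIH2 fell with shRNA#2 and AMBP with shRNA#4, and neither was called with the other hairpin.

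**Figure D1:**
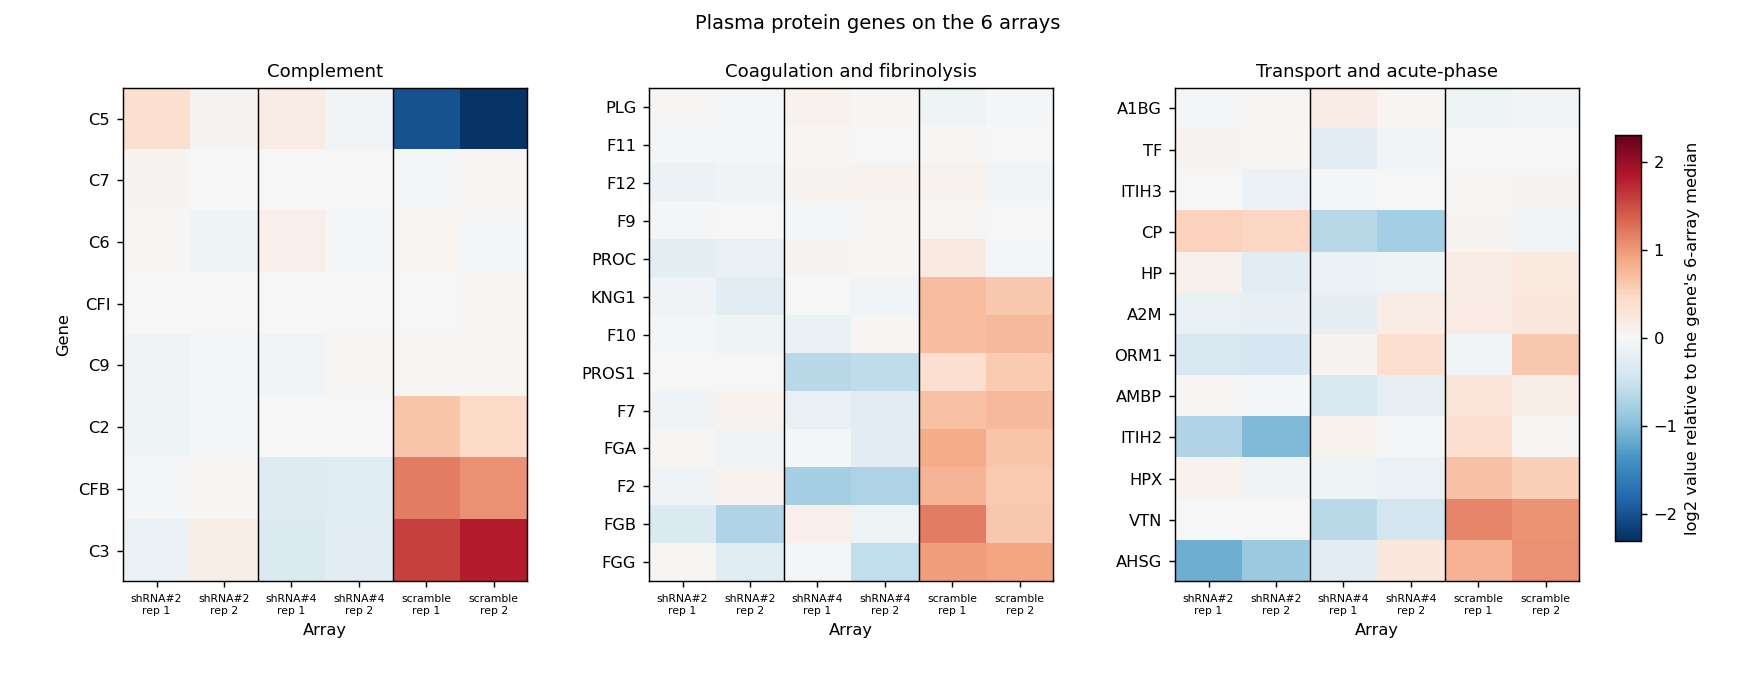
Heat maps of the 33 plasma protein genes (rows, ordered by the mean change of both hairpins) on the 6 arrays (columns), one map for each role. Colour is the log2 value relative to the gene's median over the 6 arrays. The scramble columns are red for most genes that fell, blue for C5 and pale for genes that were flat, and CP is red with shRNA#2 and blue with shRNA#4.

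C5, the source of the anaphylatoxin C5a and of the first component of the membrane attack complex, was the member that ran against the rest. Its values were 0.38 and 0.056 in the shRNA#2 arrays and 0.17 and -0.056 in the shRNA#4 arrays, against -2.002 and -2.26 in the scramble arrays. All 4 hairpin arrays lay far above both scramble arrays. C5 rose by 2.35 ± 0.14 with shRNA#2 (5.09-fold, limma adjusted p = 0.000515) and by 2.19 ± 0.14 with shRNA#4 (4.55-fold, limma adjusted p = 0.000421). The hairpins differed in C5 by 0.16, with a 95% interval of -0.19 to 0.50, which did not pass the test. When limma's variance prior was allowed a trend on the mean value, the adjusted p of C5 became 0.0776 with shRNA#2 and 0.0851 with shRNA#4, while that of the mean of both hairpins was 0.0495.

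C3, the central component on which all complement pathways converge, showed the largest fall of the 33 genes for the mean of both hairpins. Its values were -0.13 and 0.13 with shRNA#2 and -0.34 and -0.24 with shRNA#4, against 1.58 and 1.81 with scramble. The hairpin arrays lay well below both scramble arrays, the mirror image of C5. C3 fell by 1.70 ± 0.11 with shRNA#2 (3.24-fold lower) and by 1.99 ± 0.11 with shRNA#4 (3.96-fold lower), with limma adjusted p-values of 0.000636 and 0.000318. The hairpins differed by 0.29 (limma adjusted p = 0.155), and with the replicate number as a block this difference passed (limma adjusted p = 0.0278).

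CFB, the protease of the alternative pathway C3 convertase, had values of -0.038 and 0.038 with shRNA#2 and -0.30 and -0.29 with shRNA#4, against 1.18 and 1.05 with scramble. No hairpin array came near a scramble array. CFB fell by 1.12 ± 0.062 with shRNA#2 and by 1.41 ± 0.062 with shRNA#4. Its neighbour C2, which plays the matching part in the classical and lectin pathways, had -0.10 and -0.030 with shRNA#2 and -0.011 and 0.011 with shRNA#4, against 0.63 and 0.43 with scramble. C2 fell by less than CFB in both hairpins, by 0.60 ± 0.076 with shRNA#2 and by 0.53 ± 0.076 with shRNA#4. The genes lie side by side in the major histocompatibility complex on chromosome 6 (GRCh38.p14), with C2 at 31897783 to 31945672 and CFB at 31946095 to 31952084.

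The 250 bases before the RefSeq start of CFB (chr6:31945845-31946094, plus strand, GRCh38.p14) are shown because CFB is among the members with the largest falls. Capitals mark a STAT-type motif, TTCNNNGAA, and a TATA box, TATAAA.
CFB: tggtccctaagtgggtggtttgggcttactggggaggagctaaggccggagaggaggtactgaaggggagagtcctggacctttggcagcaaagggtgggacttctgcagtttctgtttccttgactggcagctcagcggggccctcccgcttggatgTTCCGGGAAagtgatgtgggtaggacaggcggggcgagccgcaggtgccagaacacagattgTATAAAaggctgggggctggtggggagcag

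The other complement members were flat. C6, C7 and C9, subunits of the membrane attack complex, and CFI, the protease that inactivates C3b, had values between -0.093 and 0.12 on every array. Their mean changes lay between -0.061 for C9 and 0.020 for C7, and none passed the test. Since the level was removed by centring, these values do not show whether the terminal components are transcribed in these cells at all.

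**Figure D2:**
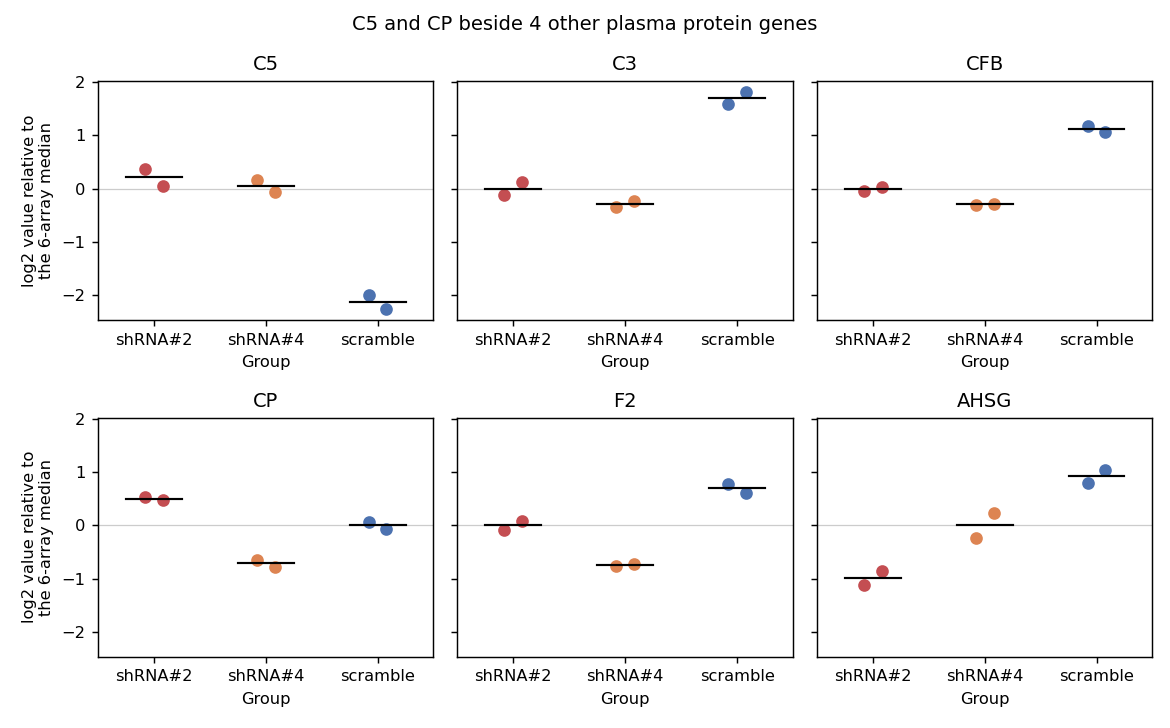
Log2 values relative to the 6-array median (y axis) for C5, C3, CFB, CP, F2 and AHSG in the shRNA#2, shRNA#4 and scramble groups (x axis), with 1 point per array and a bar at the mean of the 2 arrays. C5 is low in scramble and the falling genes are high there, while CP lies above scramble with shRNA#2 and below it with shRNA#4.

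C5 lies on the minus strand of chromosome 9 (120952335 to 121074865, GRCh38.p14) and starts head to head with CNTRL, which encodes the centrosomal protein centriolin. The 89 bases between both starts (chr9:121074866-121074954) are printed on the strand of C5, since CNTRL rose with C5. They hold 12 CpG and 71.9% G and C, and none of the 8 motifs searched.
C5: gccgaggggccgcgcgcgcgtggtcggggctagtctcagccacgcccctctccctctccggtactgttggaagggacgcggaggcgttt

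CNTRL rose by 0.58 ± 0.067 with shRNA#2 and by 0.48 ± 0.067 with shRNA#4. Both changes were smaller than those of C5. Among the 3 nearest measured genes on each side, the actin-severing gelsolin gene GSN, the gene after CNTRL, fell by 1.42 ± 0.060 with shRNA#2 and by 1.66 ± 0.060 with shRNA#4. STOM, stomatin, fell by 0.35 ± 0.080 and 0.71 ± 0.080 with the same hairpins. On the other side of C5, TRAF1 changed by -0.14 and -0.017 and was not called, while the Polycomb-associated gene PHF19 fell by 0.58 ± 0.076 and 0.33 ± 0.076. The transcribed pseudogene CUTALP fell by 0.60 ± 0.053 and 0.46 ± 0.053. Of the 6 neighbours, 1 rose and 4 fell for the mean of both hairpins, where 14.8% of all genes rose and 10.6% fell. With only 6 genes, no share of the neighbours is set beside these. The call of STOM with shRNA#2 ended without scramble replicate 1 or either shRNA#2 array (limma adjusted p = 0.0763 to 0.118). That of PHF19 with shRNA#4 ended without scramble replicate 2 (0.1) or shRNA#4 replicate 1 (0.0903).

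**Figure D3:**
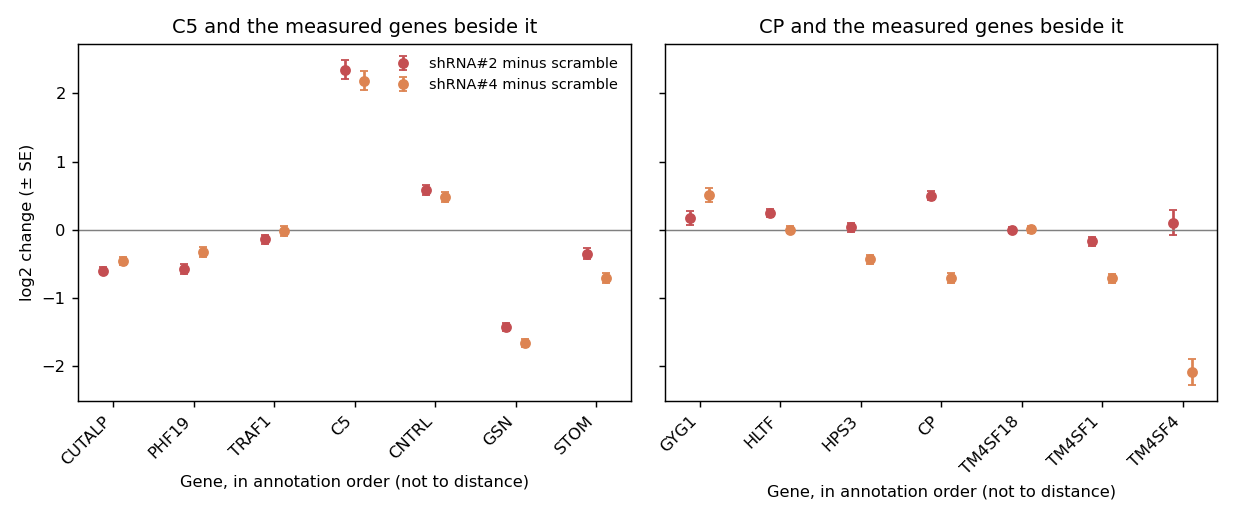
Log2 changes with shRNA#2 and shRNA#4 against scramble (y axis, ± SE) for C5 (left) and CP (right) and the 3 nearest measured genes on each side, in annotation order along the x axis and not to distance. C5 stands above all its neighbours, and beside CP the genes HPS3, TM4SF1 and TM4SF4 lie lower with shRNA#4 than with shRNA#2.

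The fibrinogen genes encode the alpha, beta and gamma chains of the clot protein and lie in a row on chromosome 4 (GRCh38.p14), FGB at 154562980 to 154572807, FGA at 154583126 to 154590742 and FGG at 154604136 to 154612656. All fell with both hairpins. FGA had 0.033 and -0.079 with shRNA#2 and -0.033 and -0.26 with shRNA#4, against 0.85 and 0.63 with scramble. FGB had -0.31 and -0.69 with shRNA#2 and 0.11 and -0.11 with shRNA#4, against 1.18 and 0.62 with scramble. FGG had 0.032 and -0.27 with shRNA#2 and -0.032 and -0.57 with shRNA#4, against 0.97 and 0.91 with scramble. The hairpin arrays lay below both scramble arrays in all 3 genes, but replicates of FGB and FGG lay further apart than those of most members.

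For the mean of both hairpins FGA fell by 0.82 ± 0.090, FGB by 1.15 ± 0.18 and FGG by 1.15 ± 0.16, with limma adjusted p-values of 0.00171, 0.00601 and 0.0037. The single-hairpin calls of FGB and FGG were less firm. Without scramble replicate 1 the limma adjusted p of FGB with shRNA#4 became 0.0762 and that of FGG with shRNA#2 became 0.0539. Leaving out either shRNA#4 array gave 0.0657 and 0.118 for FGB with shRNA#4, and leaving out shRNA#2 replicate 2 gave 0.0582 for FGG with shRNA#2. FGB was lower with shRNA#2 than with shRNA#4 by 0.50 (95% interval of the difference -1.01 to 0.010, limma adjusted p = 0.188), and this passed with the replicate block (limma adjusted p = 0.0178).

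F2, prothrombin, fell with both hairpins (2.09-fold lower in the mean), and by unequal amounts. Its values were -0.088 and 0.088 with shRNA#2 and -0.76 and -0.72 with shRNA#4, against 0.78 and 0.61 with scramble. Each group held a level of its own, with shRNA#4 the lowest. F2 fell by 0.69 ± 0.085 with shRNA#2 and by 1.43 ± 0.085 with shRNA#4, and the hairpins differed by 0.74 ± 0.085 (limma adjusted p = 0.0049). PROS1, protein S, the cofactor of the anticoagulant activated protein C, had the same order of groups. It had -0.014 and 0.014 with shRNA#2 and -0.64 and -0.58 with shRNA#4, against 0.39 and 0.60 with scramble, and the hairpins differed by 0.61 ± 0.077 (limma adjusted p = 0.00605).

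F7 and F10, the vitamin K-dependent proteases of tissue factor-initiated clotting, fell to a like extent. They are neighbours on chromosome 13 (GRCh38.p14), F7 at 113105791 to 113120685 and F10 at 113122799 to 113149529. F7 had -0.077 and 0.077 with shRNA#2 and -0.17 and -0.25 with shRNA#4, against 0.67 and 0.75 with scramble. F10 had -0.037 and -0.098 with shRNA#2 and -0.16 and 0.037 with shRNA#4, against 0.71 and 0.75 with scramble. All hairpin arrays of both genes were low and both scramble arrays high. The mean falls were 0.81 ± 0.061 for F7 and 0.79 ± 0.065 for F10. In F10 the hairpins differed by -0.0062, with a 95% interval of -0.19 to 0.18.

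KNG1, kininogen, the precursor of bradykinin, had 2 probe sets, which disagreed. The mean change of both hairpins was -1.535 in the first and -0.018 in the second. Averaged, KNG1 had -0.079 and -0.24 with shRNA#2 and -0.0081 and -0.068 with shRNA#4, against 0.73 and 0.62 with scramble, and fell by 0.78 ± 0.063. AHSG, which lies 96.0 kb before it on chromosome 3, is described with the transport proteins.

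The remaining coagulation members did not pass the test in any comparison. F9, F11 and F12, proteases of the intrinsic pathway, and PLG, the plasmin precursor, had mean changes between -0.031 for F9 and 0.079 for PLG. PROC, protein C, had -0.20 and -0.15 with shRNA#2 and 0.060 and 0.051 with shRNA#4, against 0.21 and -0.051 with scramble. The spread of its scramble arrays was as wide as its change with shRNA#2 (-0.26 ± 0.088, limma adjusted p = 0.0958), and without scramble replicate 2 the limma adjusted p was 0.0175. Of the 13 coagulation members, 8 fell and 0 rose for the mean of both hairpins, 61.5% of them, where 10.6% of all genes fell and 25.4% passed in either direction. Their median change was -0.795.

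Promoter sequence is shown for FGG, FGA, FGB and F2, coagulation genes that fell with both hairpins. FGG, on the minus strand, is shown over the 250 bases before its start (chr4:154612657-154612906), with a CDX-type motif, TTTATG read on the opposite strand, in capitals. This match lies at -29 to -24 and reads CATAAA on the strand of FGG, and only its letters were matched. For FGA (chr4:154590763-154590822, minus strand), FGB (chr4:154562900-154562959, plus strand) and F2 (chr11:46719133-46719192, plus strand) the 60 bases from -80 to -21 are shown, chosen after their values and motifs were seen. Capitals mark the HNF1 core GTTAAT, read here on the opposite strand as ATTAAC. F7, F10, FGG, KNG1 and PROS1 also fell and lacked this core in the 250 bases searched. All coordinates are GRCh38.p14 and the sequences are from RefSeq.
FGG: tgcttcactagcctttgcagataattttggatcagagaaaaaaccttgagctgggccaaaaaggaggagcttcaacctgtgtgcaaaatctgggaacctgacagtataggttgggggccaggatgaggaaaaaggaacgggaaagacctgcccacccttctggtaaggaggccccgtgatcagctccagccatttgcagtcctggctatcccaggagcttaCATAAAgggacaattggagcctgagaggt
FGA: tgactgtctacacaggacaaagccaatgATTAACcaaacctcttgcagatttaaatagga
FGB: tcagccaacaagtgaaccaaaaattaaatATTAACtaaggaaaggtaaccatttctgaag
F2: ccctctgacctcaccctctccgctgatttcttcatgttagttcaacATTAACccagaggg

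Ceruloplasmin, the copper-binding ferroxidase of plasma, was the member on which the hairpins disagreed in sign. CP had 0.53 and 0.47 with shRNA#2 and -0.64 and -0.78 with shRNA#4, against 0.062 and -0.062 with scramble. The shRNA#2 arrays were the high ones, the shRNA#4 arrays the low ones, and scramble lay between them without overlap. CP rose by 0.50 ± 0.072 with shRNA#2 (1.42-fold, limma adjusted p = 0.00527) and fell by 0.71 ± 0.072 with shRNA#4 (1.64-fold lower, limma adjusted p = 0.00127). The hairpins differed by 1.21 ± 0.072 (2.32-fold, limma adjusted p = 0.00154), the largest such difference among the 33 genes. Its mean over both hairpins, -0.11 ± 0.062, describes neither.

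CP lies on chromosome 3 (149162414 to 149221829, GRCh38.p14), where its gene overlaps HPS3. HPS3, a subunit of a complex that forms lysosome-related organelles, changed by 0.035 with shRNA#2 and fell by 0.43 ± 0.065 with shRNA#4. On the other side, TM4SF4, a four-transmembrane protein gene, changed by 0.10 with shRNA#2 and fell by 2.09 ± 0.18 with shRNA#4. TM4SF1 changed by -0.17 with shRNA#2 and fell by 0.71 ± 0.064 with shRNA#4. HPS3, TM4SF1 and TM4SF4 were each lower with shRNA#4 than with shRNA#2, as CP was, with limma adjusted p-values of 0.00815, 0.00519 and 0.00264 between the hairpins. For HPS3 this became 0.0544 without shRNA#2 replicate 1. TM4SF18, between CP and TM4SF1, was flat, with changes of -0.0036 and 0.010. Beyond HPS3, HLTF was higher with shRNA#2 than with shRNA#4 by 0.245 ± 0.054, a call that ended without any 1 of the 4 hairpin arrays (limma adjusted p = 0.105 to 0.149), and GYG1 was not called between the hairpins (limma adjusted p = 0.0764). GYG1 passed with the replicate block (0.0237), and without either scramble array or with the hairpin arrays alone (0.0361).

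Among the other transport and acute-phase genes, 5 fell and 0 rose for the mean of both hairpins, 41.7% of the 12 measured with CP, where 25.4% of all genes passed and 10.6% fell. VTN, vitronectin, which binds integrins and blocks the membrane attack complex, had -0.013 and 0.013 with shRNA#2 and -0.62 and -0.42 with shRNA#4, against 1.12 and 1.03 with scramble. Its changes were -1.07 ± 0.078 with shRNA#2 and -1.59 ± 0.078 with shRNA#4, both called. The hairpins differed by 0.52 ± 0.078 (limma adjusted p = 0.01), which became 0.059 or 0.0576 without shRNA#2 replicate 1 or 2. HPX, hemopexin, which binds free haem, had 0.082 and -0.082 with shRNA#2 and -0.095 and -0.14 with shRNA#4, against 0.68 and 0.55 with scramble, and fell by 0.68 ± 0.065 in the mean.

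AHSG, fetuin-A, an inhibitor of ectopic calcification, had the largest fall of the 33 genes with shRNA#2. It had -1.12 and -0.86 with shRNA#2 and -0.24 and 0.24 with shRNA#4, against 0.79 and 1.04 with scramble. Here the order of the hairpins was the reverse of that in F2, PROS1 and VTN. AHSG fell by 1.91 ± 0.18 with shRNA#2 (3.76-fold lower) and by 0.92 ± 0.18 with shRNA#4 (1.89-fold lower), and differed between the hairpins by -0.99 ± 0.18 (limma adjusted p = 0.0161). That difference became 0.0909 without shRNA#2 replicate 1 and 0.0531 without shRNA#4 replicate 2 (limma adjusted p). The fall with shRNA#4 became 0.0589 without scramble replicate 2.

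ITIH2, a heavy chain of the inter-alpha-inhibitors that bind hyaluronan, also fell with shRNA#2. It had -0.68 and -1.01 with shRNA#2 and 0.081 and -0.028 with shRNA#4, against 0.38 and 0.028 with scramble. The shRNA#4 and scramble arrays overlapped. ITIH2 fell by 1.05 ± 0.15 with shRNA#2, changed by -0.18 ± 0.15 with shRNA#4, and differed between the hairpins by -0.87 ± 0.15 (limma adjusted p = 0.0145, and 0.0608 to 0.0729 without shRNA#2 replicate 2 or either shRNA#4 array). AMBP, whose product is cut into alpha-1-microglobulin and the inter-alpha-inhibitor light chain bikunin, had 0.030 and -0.030 with shRNA#2 and -0.36 and -0.19 with shRNA#4, against 0.29 and 0.16 with scramble. It fell by 0.50 ± 0.078 with shRNA#4 and changed by -0.22 ± 0.078 with shRNA#2. For the mean of both hairpins the calls of AMBP and ITIH2 ended without scramble replicate 1, with limma adjusted p-values of 0.0759 and 0.0919.

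The upstream 250 bases of AHSG (chr3:186612810-186613059, plus strand) and VTN (chr17:28370308-28370557, minus strand) are printed as those of the largest falls in this role. Capitals mark an HNF4 motif, CAAAGTCCA read on the opposite strand, in AHSG and a STAT-type motif in VTN (GRCh38.p14, RefSeq).
AHSG: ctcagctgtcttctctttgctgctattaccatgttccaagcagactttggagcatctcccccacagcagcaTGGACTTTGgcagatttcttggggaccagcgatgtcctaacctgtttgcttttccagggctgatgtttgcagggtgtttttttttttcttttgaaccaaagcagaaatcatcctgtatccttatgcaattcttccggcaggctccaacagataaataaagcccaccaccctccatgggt
VTN: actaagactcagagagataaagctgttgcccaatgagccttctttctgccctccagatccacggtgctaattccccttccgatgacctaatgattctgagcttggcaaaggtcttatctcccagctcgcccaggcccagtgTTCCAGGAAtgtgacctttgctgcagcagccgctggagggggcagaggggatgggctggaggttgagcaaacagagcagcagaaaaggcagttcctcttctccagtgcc

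The other 6 transport genes did not pass the test. A2M, the broad protease inhibitor alpha-2-macroglobulin, had -0.17 and -0.19 with shRNA#2 and -0.22 and 0.17 with shRNA#4, against 0.19 and 0.25 with scramble. Its mean change was -0.32 ± 0.10 (limma adjusted p = 0.0729), and it passed with the replicate block (limma adjusted p = 0.0489) and without either shRNA#4 array (0.0301 and 0.00561). HP, haptoglobin, changed by -0.29 ± 0.093 in the mean (limma adjusted p = 0.0697), and without shRNA#2 replicate 1 or 2 its limma adjusted p was 0.00871 or 0.0432. ORM1, the acute-phase orosomucoid, shares most of its sequence with ORM2 and had scramble arrays at -0.065 and 0.61, too far apart to place the hairpin arrays. With shRNA#2 its change of -0.66 ± 0.22 had a limma adjusted p of 0.0856, and of 0.0327 with the replicate block. TF, transferrin, A1BG and ITIH3 had mean changes of -0.052, 0.13 and -0.094.

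**Figure D4:**
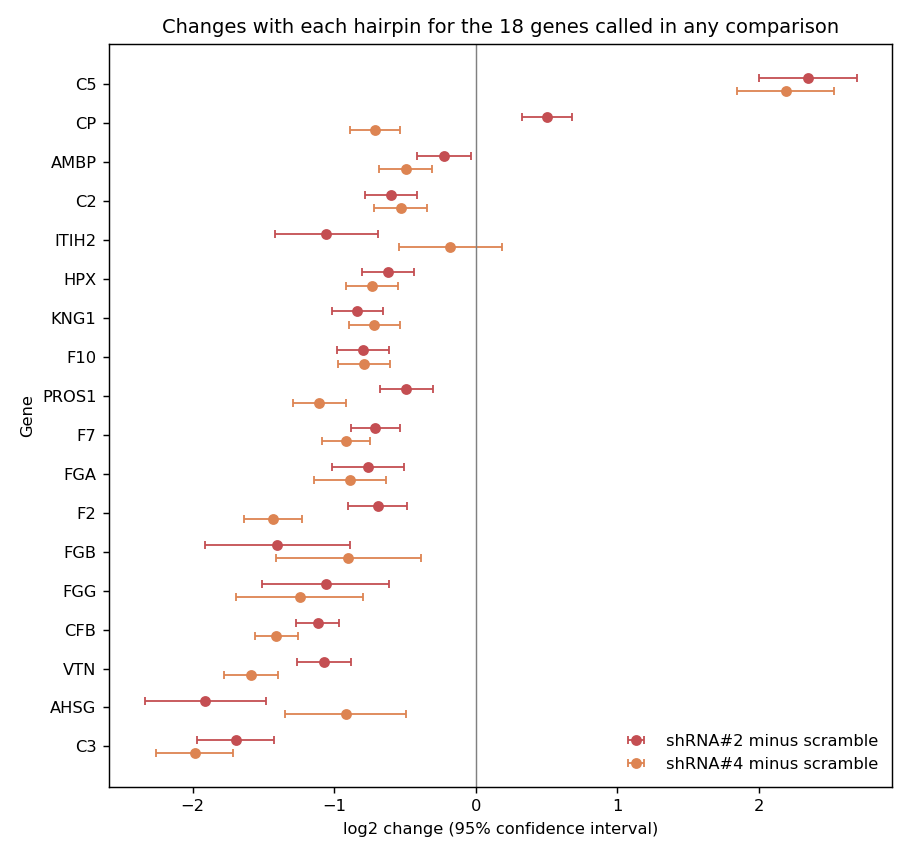
Log2 changes against scramble (x axis, with 95% confidence intervals of the limma fit) with shRNA#2 and with shRNA#4 for the 18 genes called in at least 1 of the 4 comparisons (y axis). C5 lies near 2.3 for both hairpins, CP lies on opposite sides of 0, and all other points lie below 0.

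Between the hairpins, 7 of the 33 genes passed the test, 5 higher with shRNA#2 than with shRNA#4 and 2 lower, where 6.64% of all genes were higher and 8.63% lower (15.3% together). Higher were CP, CFB, F2, PROS1 and VTN, and lower were AHSG and ITIH2. The difference in CFB was 0.29 ± 0.062 (limma adjusted p = 0.028), and leaving out any 1 of the 4 hairpin arrays gave 0.0861 to 0.137. Of the 7 genes, CP, F2 and PROS1 passed under each of the 15 alternatives tried.

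Receptors and regulators of complement moved little. Of 21 measured genes of a list of further complement components, receptors and regulators, 2 rose and 2 fell for the mean of both hairpins, 19.0% of the list where 25.4% of all genes passed. CLU, clusterin, an inhibitor of the terminal pathway, rose by 0.35 ± 0.050, and SUSD4, a complement inhibitor of the cell surface, rose by 0.29 ± 0.059. SUSD4 was called higher with shRNA#4 (0.45) and not with shRNA#2 (0.13, limma adjusted p = 0.26), and the hairpins differed (limma adjusted p = 0.0287). MASP1, a protease of the lectin pathway, fell by 0.19 ± 0.040. C4B fell by 0.14 ± 0.041, but its near-identical copy C4A cannot be told apart from it here. Its call ended with the replicate block (limma adjusted p = 0.0557) and without any 1 array (0.0843 to 0.176). The call of MASP1 ended without scramble replicate 1 or 2 (0.0709 and 0.0758), and that of SUSD4 without scramble replicate 2 (0.0906). The receptors of the C5a and C3a peptides were flat, with mean changes of -0.0019 for C5AR1, 0.024 for C5AR2 and -0.022 for C3AR1.

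Of 19 measured further genes of coagulation and fibrinolysis, 4 fell and 0 rose for the mean of both hairpins. This was 21.1% of the list, where 25.4% of all genes passed in either direction and 10.6% fell. For shRNA#2 alone 31.6% of the list passed beside 21.6% of all genes, and for shRNA#4 alone 36.8% beside 26.1%. HRG, the histidine-rich glycoprotein of plasma, fell by 1.03 ± 0.058, and TFPI, the inhibitor of the tissue factor pathway, by 0.81 ± 0.047. TFPI was lower with shRNA#2 than with shRNA#4 (limma adjusted p = 0.00199). S100A10, a subunit of a plasminogen receptor, fell by 0.65 ± 0.096 and the thrombin receptor F2R by 0.62 ± 0.082. The median of this list was -0.076.

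Of 31 measured other secreted proteins of liver type, 16 fell and 0 rose, 51.6% of the list beside 25.4% of all genes, with a median of -0.315. The changes were -2.25 ± 0.094 for APOC3, -1.58 ± 0.16 for the thyroid hormone carrier TTR, -1.58 ± 0.15 for the fetal serum protein AFP and -1.46 ± 0.045 for APOA1. ALB, albumin, changed by -1.42 ± 0.13. The 33 plasma protein genes had a median of -0.36 and 16 falls in the same comparison.

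Of 16 measured transcription factors of hepatocytes and enterocytes, 6 fell and 3 rose, 56.2% of the list beside 25.4% of all genes. CREB3L3, which is known to activate acute-phase and lipid genes in liver, had -0.25 and 0.045 with shRNA#2 and -0.19 and -0.045 with shRNA#4, against 1.43 and 1.23 with scramble, and fell by 1.43 ± 0.10. GATA4 fell by 0.56 ± 0.051. PROX1 rose by 0.99 ± 0.097 and FOXA2, a forkhead factor of endoderm, by 0.60 ± 0.065. Of 15 measured genes of interleukin-6 and acute-phase signalling, 3 fell and 2 rose for the mean of both hairpins, 33.3% beside 25.4% of all genes. For shRNA#2 alone 13.3% of this list passed beside 21.6% of all genes, and for shRNA#4 alone 46.7% beside 26.1%. IL6R, the interleukin-6 receptor, fell by 0.84 ± 0.075 and MYD88 by 0.30 ± 0.055, while SOCS1, a feedback inhibitor of cytokine signalling, rose by 0.31 ± 0.072 and BCL3 fell by 0.30 ± 0.084. Without scramble replicate 1 the limma adjusted p of MYD88 was 0.0693, that of SOCS1 0.143 and that of BCL3 0.21. The call of SOCS1 also ended without scramble replicate 2 or either shRNA#2 array (0.0626 to 0.069). That of BCL3 ended with the replicate block (0.0569) and without any 1 hairpin array (0.0696 to 0.117).

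Of 11 measured genes of copper and iron handling, 3 fell and 1 rose for the mean of both hairpins, 36.4% beside 25.4% of all genes. The hairpins differed in this, with 18.2% of the list called for shRNA#2 beside 21.6% of all genes. For shRNA#4 it was 54.5% beside 26.1%. HEPH, hephaestin, the membrane-bound ferroxidase of enterocytes and a homologue of ceruloplasmin, had -0.027 and 0.027 with shRNA#2 and -0.67 and -0.46 with shRNA#4, against 0.87 and 0.78 with scramble. It fell by 0.83 with shRNA#2 and by 1.39 with shRNA#4, so the homologues went the same way with shRNA#4 and opposite ways with shRNA#2. CCS, the copper chaperone of superoxide dismutase, fell by 0.45 ± 0.0645 and HFE by 0.42 ± 0.098, while CYBRD1, a duodenal ferric reductase, rose by 0.24 ± 0.055. HFE and CYBRD1 were called with shRNA#4 and not with shRNA#2 (limma adjusted p = 0.31 and 0.0967). In HFE the hairpins differed (limma adjusted p = 0.0471). The call of HFE ended without either scramble or either shRNA#2 array (limma adjusted p = 0.059 to 0.138). That of CYBRD1 ended without either scramble array or shRNA#2 replicate 1 (0.0636 to 0.126).

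**Figure D5:**
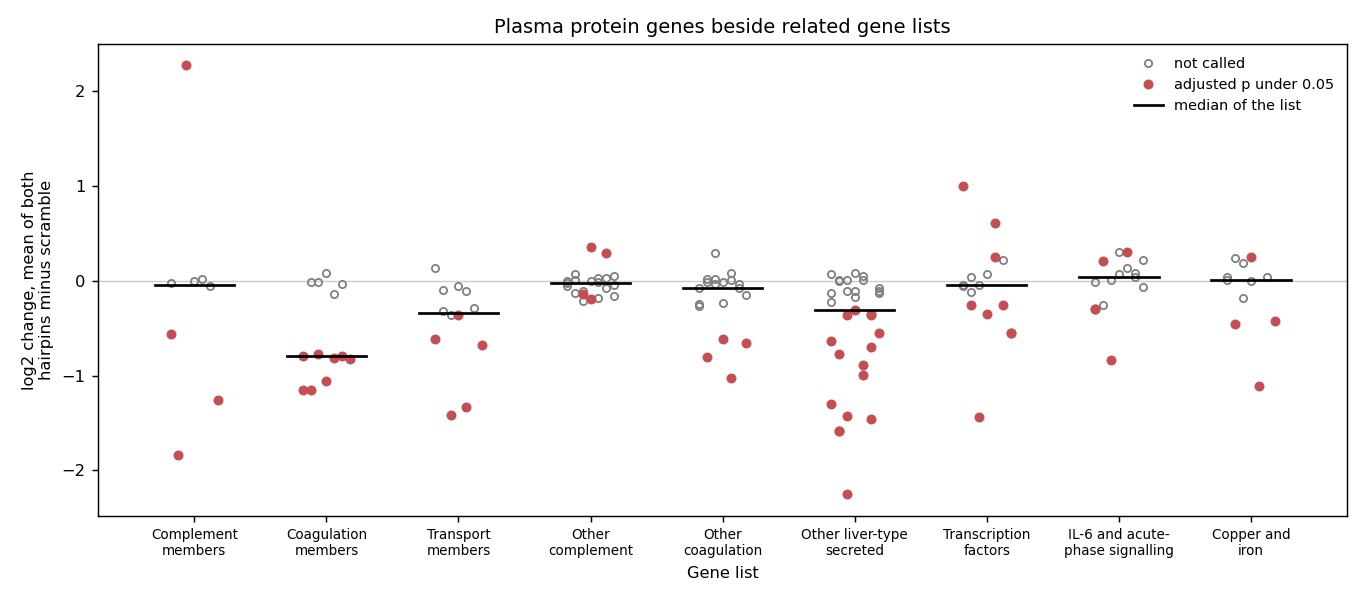
Log2 change of the mean of both hairpins against scramble (y axis) for each measured gene of 9 lists (x axis), the 3 roles of plasma protein genes at the left. Filled points passed the test, open points did not, and bars are list medians. The coagulation members have the lowest median (-0.795), and C5 is the highest point.

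Some markers of cell types also passed the test. Over all genes, 25.4% passed for the mean of both hairpins, 14.8% higher and 10.6% lower. Of 9 measured epithelial markers, 6 fell and 0 rose in this comparison, 66.7% of the list. Among the falls were PHGR1 (-1.76 ± 0.065), KRT20 (-1.19 ± 0.21), GPA33 (-0.98 ± 0.17) and VIL1 (-0.61 ± 0.059). The falls of EPCAM (-0.15 ± 0.039) and CDX2 (-0.26 ± 0.065) were smaller. The call of GPA33 ended without scramble replicate 2 (limma adjusted p = 0.0623), that of EPCAM without any 1 array (0.0682 to 0.139) and that of CDX2 without scramble replicate 2, either shRNA#2 array or shRNA#4 replicate 2 (0.0518 to 0.169). The general epithelial keratins did not pass in the mean, with changes of 0.30 ± 0.11 for KRT18, 0.13 ± 0.097 for KRT8 and -0.0070 ± 0.095 for KRT19. KRT18 passed in the mean with the replicate block (limma adjusted p = 0.00811), and it was called higher with shRNA#4 (0.49 ± 0.12, limma adjusted p = 0.0315). That call ended without either scramble array or shRNA#4 replicate 2 (0.0597 to 0.143). Of 8 measured hepatocyte markers, 3 fell and 0 rose, ALB, HAL (-0.55 ± 0.056) and ASGR1 (-0.40 ± 0.046). This was 37.5% of the list beside 25.4% of all genes, a share that rests on 3 genes. The median epithelial marker stood between -0.077 and -0.008 on the hairpin arrays, against 0.122 and 0.231 on the scramble arrays. The median hepatocyte marker stood between -0.072 and -0.015 on the hairpin arrays, against 0.020 and 0.053 on the scramble arrays. Of 5 fibroblast and mesenchymal markers, TAGLN and VIM rose and THY1 fell in the mean. TAGLN was called higher with shRNA#4 (1.11 ± 0.064), while its change with shRNA#2 was -0.23 ± 0.064 (limma adjusted p = 0.0512, and 0.0356 with the replicate block). No marker of this list rose with shRNA#2. Without scramble replicate 1 the mean calls of VIM (0.0572) and THY1 (0.124) ended, and that of THY1 also without any other array but shRNA#4 replicate 1 (0.0524 to 0.0636). Of 5 leukocyte markers 3 fell, CD68 (-2.01 ± 0.17), LYZ (-1.16 ± 0.105) and CSF1R (-0.31 ± 0.053), the last not without scramble replicate 2 (limma adjusted p = 0.053). CD14 lay above scramble on all 4 hairpin arrays, with a change of 0.34 ± 0.098 (limma adjusted p = 0.0519, and 0.00775 without scramble replicate 2). CD68 and LYZ, like other lysosomal and antimicrobial genes, are not specific to leukocytes. With 5 genes each, the mesenchymal and leukocyte lists are too short to set a share beside that of all genes. The part of the cell-type markers in the changes of the plasma protein genes was not tested.

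Of the 33 genes, 28 matched a RefSeq promoter (GRCh38.p14). A2M, CP, C3, HP and ITIH2 did not. Over the 250 bases before the outermost start, the HNF1 core GTTAAT was found on either strand in F2, FGA and FGB, 3 of 14 searched genes that fell, and in CFI among 13 that did not pass, beside 6.26% of 27305 promoters. It lay at -34 to -29 in F2, -52 to -47 in FGA and -51 to -46 in FGB, and at -248 to -243 in CFI. The STAT-type motif TTCNNNGAA was found in CFB, F10, FGA, PROS1 and VTN, 5 of the 14, and in A1BG, C7 and F9, 3 of the 13, beside 6.76% of promoters. CDX-type TTTATG was found in FGG and KNG1 beside 10.0%, and HNF4-type CAAAGTCCA in AHSG beside 0.289%. The TATA box letters TATAAA were found in CFB, C7 and ORM1 beside 11.2%. They lay at -30 to -25 in CFB and -29 to -24 in ORM1, but at -213 to -208 on the opposite strand in C7. The full HNF1 palindrome, TTGCGCAA of C/EBP and TGANTCA of AP-1 were in 0 of the member promoters. These matches are descriptions of the letters in this window.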

How the data were processed

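The authors deposited values on a log scale, taken here as log2, for 48144 probe sets on 6 single-channel arrays. Per the labels' protocols, sense-strand DNA was labelled from 100 ng of total RNA with the WT PLUS kit. The software, the summarisation, the normalization between arrays and the logarithm's base were not given in the sources used here. Every fold printed rests on base 2. Every probe set had a median within 1e-06 of 0, so the deposited values were centred.

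Probe sets were named through Entrez IDs of the platform table and RefSeq. A single symbol was held by 16098, several by 0 and none by 32046. Probe sets of a gene were averaged (14884 genes, 779 with more than 1 probe set). limma 3.58.1 (R 4.3.3) fitted all 6 arrays and 3 groups, followed by eBayes with no variance trend. Residual degrees of freedom were 3 and prior ones 3.09, and p-values were adjusted over all genes by Benjamini-Hochberg. The fit was tested on simulated data. The number of arrays limits the precision.

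Replicate numbers are shared by the groups. Differences between replicates 1 and 2 correlated across genes at 0.199 (shRNA#2 and shRNA#4), 0.179 (shRNA#2 and scramble) and 0.119 (shRNA#4 and scramble). All were over 0.1, so the numbers may pair the samples, which the labels do not state. SEs, intervals and p-values come from the fit without a block unless a block is named. The fit with a replicate block is given where it changed a call.

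Members and gene lists were chosen with earlier results of these data known. Named were all members, up to 4 called genes per list with the largest mean changes, and 3 measured neighbours on each side of C5 and CP. ALB, the receptors C5AR1, C5AR2 and C3AR1, C4A, HMOX1, EPCAM, CDX2, KRT8, KRT18, KRT19 and CD14 were added after values were seen. Figures were drawn with matplotlib 3.10.9 under Python 3.11.15, with pandas 2.3.3.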

Additional observations from a re-analysis of the deposited data

Results flagged for a closer look

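For 7 plasma protein genes the effects of the hairpins differed by the test between shRNA#2 and shRNA#4 (limma, Benjamini-Hochberg over all genes), where 15.3% of all genes did. The differences, shRNA#2 minus shRNA#4 on the log2 scale, were 1.21 for CP, 0.74 for F2, 0.61 for PROS1, 0.52 for VTN, 0.29 for CFB, -0.87 for ITIH2 and -0.99 for AHSG. CP was the gene among them whose changes against scramble were called with opposite signs. Groups of 2 arrays are too small to test for outlying arrays.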

How the results depend on the processing

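None of the 33 genes changed direction where it was called, under any alternative. The number of members called for the mean of both hairpins was 17, and 15 to 18 under its 14 alternatives. With shRNA#2 alone it was 17 and ranged from 16 to 19, and with shRNA#4 alone it was 17 and ranged from 15 to 18. Between the hairpins it was 7, fell to 3 at an adjusted p under 0.01, and ranged from 4 to 9 when single arrays were left out. The lowest value, 4, came without shRNA#2 replicate 1, shRNA#2 replicate 2 or shRNA#4 replicate 2. With the replicate block 18 members were called for the mean of both hairpins, 19 with shRNA#2, 17 with shRNA#4 and 9 between the hairpins. In the main fit 25.4%, 21.6%, 26.1% and 15.3% of all genes passed in the same comparisons. Shares of all genes under the alternatives are not given here, so whether the member counts moved with them was not tested. The block changed no call of a member other than those of A2M, ORM1, C3 and FGB given above. Of the 17 members called for the mean of both hairpins, 15 were called under each of the 14 alternatives, and AMBP and ITIH2 were not. KNG1 is among the 15, but the fit of each probe set on its own kept only the probe set with the lower p-value. The other KNG1 probe set, with a mean change of -0.018, did not enter that count. The mean change of C5 kept its call under each alternative, and CP was not called in the mean under any. When an array is left out, the lone array of its group is assumed to vary like the other groups. A filter on dim probe sets and a background correction were not run, since centring removed the signal level, and the cause of the lost calls was not tested beyond the smaller number of arrays.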

Other observations

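HMOX1, haem oxygenase, which frees iron from haem, was chosen after its values were seen. It had -0.54 and -0.38 with shRNA#2 and 0.80 and 1.07 with shRNA#4, against -0.16 and 0.16 with scramble, so that the hairpin arrays stood on opposite sides of scramble, in the reverse order of CP. It rose by 0.94 with shRNA#4, while its change of -0.46 with shRNA#2 was not called (limma adjusted p = 0.0618). That change passed with the replicate block (0.00481), with quantile normalization (0.0244) and without scramble replicate 1 (0.046). The hairpins differed (limma adjusted p = 0.00305).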
